A study of Drosophila melanogaster with 4 samples.

Results

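The window around the gene hairy (h, listed as hry in current gene tables) was examined for binding of the co-repressor Groucho in Drosophila melanogaster. Its members are the peaks of chromosome arm 3L whose centre lies from 8640 to 8720 kb (FlyBase release 5). The rule finds 37 peaks, of 2565 on 3L and 11165 in the whole list. The members were chosen by the measured positions of the peaks, and the window was known to be rich in peaks when it was set, so the number of its peaks and their closeness are descriptions and carry no test.

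The assay was ChIP-seq, in which DNA bound by a protein is pulled down with an antibody and sequenced, on white prepupae, the stage that opens metamorphosis. No dissected tissue is named in the labels. The series has 4 libraries, 2 of Groucho ChIP with the rabbit polyclonal serum KW0:GRO, raised against a Groucho peptide, and 2 of input DNA. All 4 come from the strain Y cn bw sp, whose genotype carries y[1] and oc[R3.2], then Gr22b[1] and Gr22d[1] with cn[1], CG33964[R4.2], bw[1] and sp[1], and also Rh6[1], GstD5[1], MstProx[1], LysC[1] and lab[R4.2]. What was deposited is 1 list of peaks, each with its position and the score of the caller MACS. No value belongs to a single library, which leaves replicate spread and read depth unknown. In a chromatin sample of many cells, strong binding in few of them and weak binding in many cannot be told apart.

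Hairy is a transcriptional repressor of the basic helix-loop-helix class, and the founding example of the family that vertebrate Hes proteins belong to. It binds DNA itself and recruits Groucho through a short peptide at its C-terminus. Groucho has no DNA-binding domain of its own and silences genes where such repressors bring it. In the embryo hairy acts as a pair-rule gene of segmentation, driven by separate enhancers for its stripes that spread over a long stretch of flanking DNA, and later it keeps sensory bristles and eye differentiation in their proper places. The peak list carries no gene names, and the gene table at hand is on release 6, so no peak is assigned here to the hairy transcript, its promoter or an enhancer. In that table the nearest genes by start position are Arr2 (an arrestin of photoreceptors) and Pex7 (a peroxisomal import factor) on one side, and lncRNA:CR44526 and SrpRbeta (a subunit of the signal recognition particle receptor) on the other. The list could not be checked against a known site of the hairy gene for the same reason.

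Groucho occupied the hairy window as a long, dense run of sites with open stretches on both sides. The 37 peaks spanned 69346 bp, from 8644364 to 8713709, and covered 36439 bp, or 45.5% of the 80 kb window and 52.5% of the span. The scores reached from 7.32 to 312.93 and the widths from 201 to 4154 bp. A total of 9 peaks scored above 100, and the other 28 scored 78.06 or less. The peaks that scored above 100 lay along the window from its lower end to beyond its middle, with weaker peaks between them, as the map of the window shows.

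**Figure D1:**
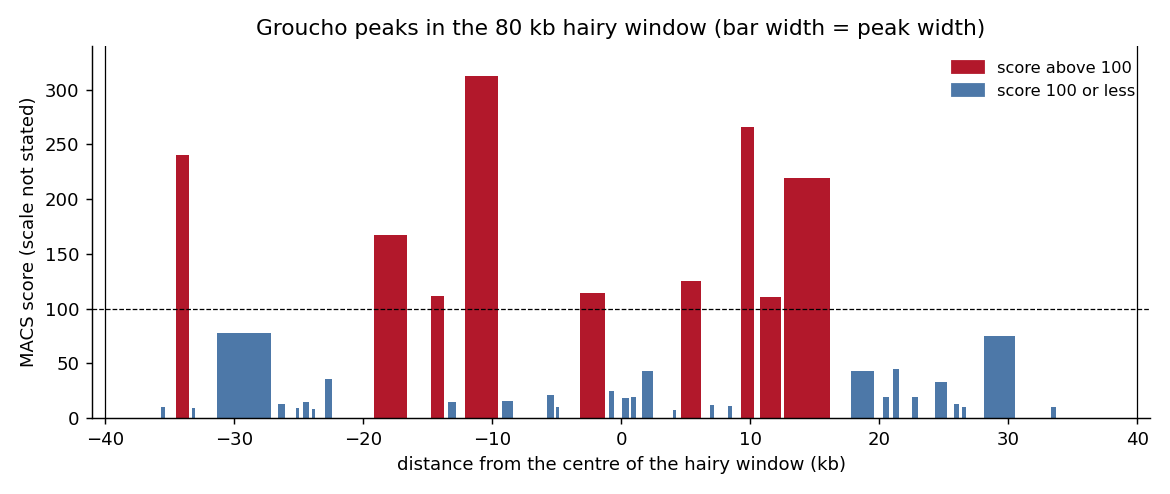
Groucho peaks in the hairy window, drawn by distance from the window's centre (kb, horizontal) and by the authors' MACS score (vertical), with each bar as wide as its peak. The 9 red bars score above 100 (dashed line), up to 312.93, and the 28 blue bars score 78.06 or less. Vertical lines mark the window's borders.

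The site of highest score in the window lay at 8667863 to 8670487, 10.82 kb below the window's centre. It scored 312.93, was 2625 bp wide and ranked as number 6 of the 2565 peaks of 3L and number 24 of the 11165 peaks of the list. The second, at 8689295 to 8690287, scored 266.16 within 993 bp and ranked as number 16 on 3L. These 2 members were the only ones among the 26 peaks that make up the top 1% of the arm by score. They stood on opposite sides of the window's centre, the second 9.79 kb above it.

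The third, at 8645469 to 8646512, scored 240.54 and stood close to the lower end of the run, with 1 peak before it. The fourth, at 8692619 to 8696197, scored 219.05 and was also the second-widest member at 3579 bp. The fifth, at 8660843 to 8663421, scored 167.61 and was 2579 bp wide. The ranks of these 3 peaks on the arm were 27, 34 and 69.

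The remaining members above 100 scored much alike. They were the peaks at 8684615 to 8686155 with 125.53, at 8676800 to 8678761 with 114.21, at 8665237 to 8666283 with 111.44 and at 8690770 to 8692358 with 110.75. The tenth member by score was the widest of all. It lay at 8648713 to 8652866, was 4154 bp wide, number 9 of the arm by width, and scored 78.06. The peaks with the highest scores were therefore not simply the widest ones. Of the 5 members wider than 2 kb, 3 scored above 100, and the other two, of 4154 and 2436 bp, scored 78.06 and 75.

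From low to high coordinates, the run can be followed as 13 groups when peaks less than 1 kb apart are joined. The first group, at 8644364 to 8646977, held the peak of 240.54 between narrow neighbours of 10.57 and 9.41. The second, at 8648713 to 8657578, opened with the widest peak and went on with 5 peaks that scored 13.39, 9.41, 14.54, 8.86 and 35.95. It was the widest of the 13 groups, at 8866 bp, and had no member above 100. A peak-free stretch of 3264 bp followed, the longest inside the run, between the peak at 8657054 to 8657578 (score 35.95) and that at 8660843 to 8663421, which formed a group alone.

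The next groups reached from there across the centre of the window. The group at 8665237 to 8671626 contained the highest peak, with neighbours of 111.44, 14.9 and 15.91. A pair at 8674273 to 8675218 scored 20.99 and 10.07. The group at 8676800 to 8682463, which spans the centre of the window, opened with the peak of 114.21 and continued with 4 peaks of 24.58, 18.38, 19.57 and 43.02. The shortest gap of the run, 120 bp, lay just beside the window's centre, between the peaks of 18.38 and 19.57.

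The group at 8684037 to 8687228 had the weakest member of all, with a score of 7.32 and a width of 201 bp, the smallest in the list. It was followed by the peak of 125.53 and one of 12.32. The next, at 8688297 to 8696197, opened with a peak of 11.02 and then held 3 peaks above 100 in a row, 266.16, 110.75 and 219.05. Only gaps of 482 and 260 bp parted these 3, which made this the single group with 3 members above 100.

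Above that group the scores stayed under 100. The peaks at 8697833 to 8701570 scored 43.31, 19.85 and 45.02, a lone peak at 8702583 to 8703028 scored 19.48, and those at 8704353 to 8706715 scored 32.72, 12.63 and 10.64. The run closed with 2 lone peaks. The one at 8708124 to 8710559 scored 75 over 2436 bp, and the last, at 8713346 to 8713709, scored 9.96 and stood 2786 bp apart, across the second-longest gap of the run. In all, 9 members lay above the start of this last stretch at 8697833, and none of them was above 100.

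In blocks of 10 kb, the number of peaks and the bases they covered gave different orders. The block at 8680001 to 8690000 held the most peaks, 8, and was covered to 49.1%. The block at 8690001 to 8700000 held 3 peaks but was covered to 72%, and that at 8660001 to 8670000 held 4 peaks and was covered to 63.5%. The best-covered blocks thus had few, wide peaks. The lowest share, 9.23%, belonged to the last block, which held 1 peak, and the other blocks were covered to between 28.4% and 49.6%. Peaks were assigned to blocks by their centre, and coverage by base. The 9.23% thus includes the end of the peak at 8708124 to 8710559, which was counted in the block before.

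The 9 peaks above 100 made up 16959 bp, or 46.5% of the covered bases. Neighbours among them stood 1773 to 16141 bp apart, centre to centre, with a median of 4017 bp. The widest of these intervals followed the peak of 240.54 near the lower end and held 7 weaker peaks. Of the 28 weaker members, 8 lay less than 1 kb from a peak above 100, edge to edge, and 9 lay more than 5 kb from any. Within the window, weaker peaks thus stood both beside the high ones and far from them. Distances to a peak above 100 were not computed for the other peaks of the arm, so these counts have no background.

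Many members scored no more than ordinary Groucho peaks of the arm, and the difference lay in the upper part of the scores. The median score of the 37 members was 19.85, against 18.01 over the 2528 other peaks of 3L. The lower quartile was 12.32 in both. The upper quartile was 78.06 among the members and 35.49 among the others. Against the median of the whole list, 18.38, 15 members scored lower, 1 equal and 21 higher.

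Scores above 100 belonged to 9 of 37 members (24.3%), and among the other peaks of 3L to 159 of 2528, a background of 6.29% (6.81% in the whole list). Widths over 2 kb belonged to 5 members (13.5%), with a background of 2.57% on the rest of 3L and 2.53% in the whole list. The median width was 540 bp among the members and 441 bp among the other peaks of 3L, and the mean widths were 985 and 599 bp. No test was made of these differences, because the window was chosen with the list known and neighbouring peaks share libraries, depth and one stretch of chromosome.

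Score and width went together inside the window (Spearman's rho = 0.892, Pearson's r = 0.631, n = 37 peaks), as they did over the other peaks of 3L (0.763 and 0.669, n = 2528). These values describe peaks of 1 list and peaks are not independent. Within width classes, the 16 members under 500 bp had a median score of 10.83, against 13.33 for the 1449 other such peaks of 3L. The 10 members of 500 to 1000 bp had a median of 26.86 and the other 771 peaks one of 28.74. The 11 members over 1000 bp had a median of 114.21, ranging from 43.31 to 312.93, against 69.75 for 308 others. The narrow members thus had slightly lower, and the wide members higher, median scores than other peaks of the same width class. The class over 1000 bp has no upper limit, and widths were not matched inside it. Of its 11 members 5 were wider than 2 kb, against 65 of its 308 other peaks. The class medians are descriptions and were not tested.

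**Figure D2:**
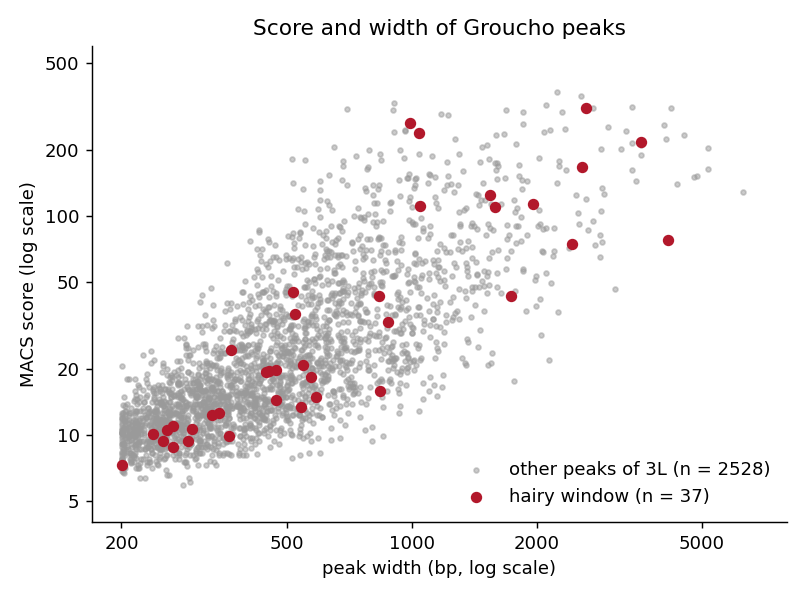
Width (bp) and MACS score of each Groucho peak on 3L, both on log axes, with the 37 peaks of the hairy window in red and the 2528 other peaks in grey. The members follow the cloud of the arm from the narrowest peak, 201 bp and 7.32, to the highest, 2625 bp and 312.93.

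Peaks within the run stood close together. The 36 gaps between neighbouring members ranged from 120 to 3264 bp, with a median of 715 bp, whereas the median gap between other neighbouring peaks of 3L was 2263.5 bp. Of the 36 gaps, 24 were under 1 kb, 14 under 500 bp and 3 over 2 kb. Such shares were not computed for the other gaps of 3L, and short gaps follow in part from the choice of a dense window. Each member had 4 to 12 other peaks within 10 kb, with a median of 9, and the other peaks of 3L had a median of 4, with a range from 0 to 14. At least 4 others within 10 kb were found for all 37 members, with a background of 53.7% among the other peaks of the arm, a difference that the choice of a dense window fixes in part. The 9 members above 100 had a median of 9 others within 10 kb, and the 159 other peaks of 3L above 100 a median of 4. These medians equal those of all members and of all other peaks, so they restate the density of the window.

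Long stretches without a called peak bounded the run on both sides. Toward its higher end, scores and coverage had already fallen within the run. The block at 8690001 to 8700000 reached a score of 219.05 and was covered to 72%. The next block reached 75 and 48.2%. The last reached 9.96 and 9.23%, a coverage that includes the end of the peak of 75, whose centre lies in the block before. On the lower side, the first member, at 8644364 to 8644621 with a score of 10.57, followed a stretch of 91046 bp in which no peak was called. The nearest peak outside, at 8552934 to 8553317, scored 22.15, and the one before it, at 8544050 to 8544285, scored 8.6. On the higher side, 42081 bp without a peak separated the last member from a peak at 8755791 to 8757847 with a score of 69.13, which was followed by one at 8758486 to 8760183 with 78.67. The 2 members next to each border were those of 10.57 and 240.54 on the lower side and those of 75 and 9.96 on the higher side. No peak crossed a border of the window, and the first and last members lay 4364 and 6291 bp inside it.

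Of the 2564 gaps between neighbouring peaks on 3L, 27 (1.05%) were at least as long as the one below the run and 98 (3.82%) at least as long as the one above. The 80 kb window just below held 0 peaks, and that just above held 8. Because depth is unknown, these stretches are ones without a call rather than ones shown to lack Groucho, and their mappability was not analysed here.

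**Figure D3:**
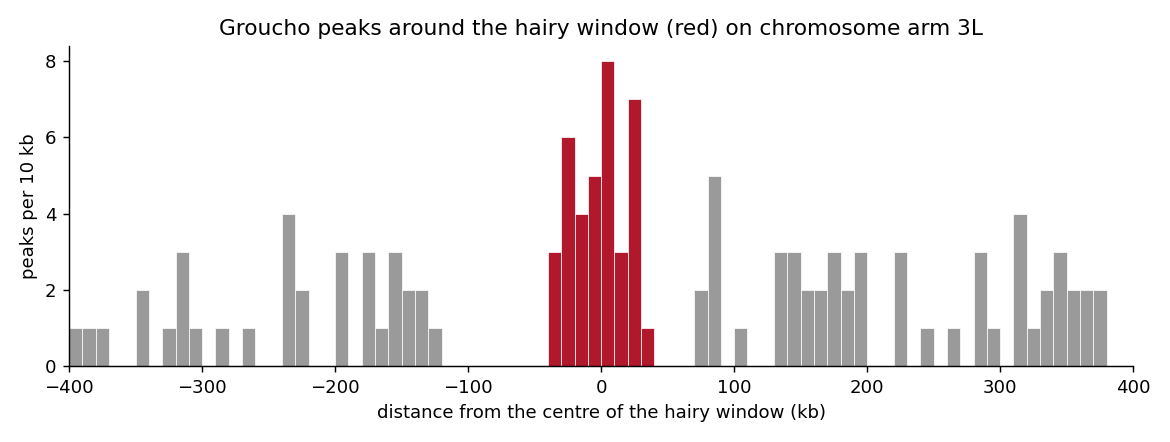
Number of Groucho peaks in blocks of 10 kb (vertical) by distance from the centre of the hairy window (kb, horizontal), with the blocks of the window in red and those of the arm within 400 kb of its centre in grey. The window's blocks hold 1 to 8 peaks, and empty blocks lie on both sides, over the peak-free stretches of 91046 and 42081 bp.

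Among long chains of sites on the arm, the run ranked high in number of peaks and first in the length of its empty flanks. All 37 members formed 1 chain when peaks less than 5 kb apart were linked. Of the 39 chains of 10 or more peaks on 3L, it was the second by number, after a chain of 42 peaks at 17940378 to 18010037. It was the third by covered share of its span, at 52.5%, among shorter chains that reached 62.1%. By the shorter of its flanking stretches, 42081 bp, it was the first of the 39, whose median was 7309 bp. The chains of 42 and 33 peaks, nearest to it in number, had shorter flanking stretches of 5029 and 5011 bp.

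**Figure D4:**
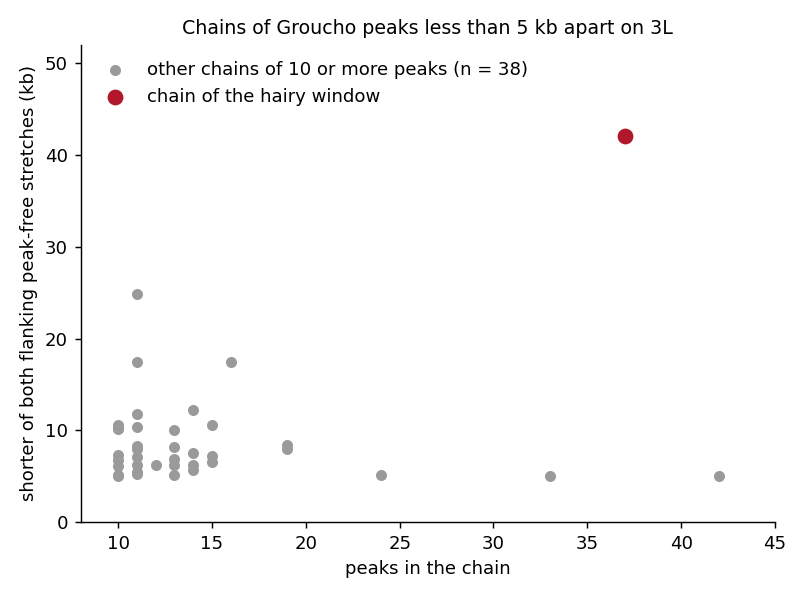
Chains of at least 10 Groucho peaks less than 5 kb apart on 3L, by number of peaks (horizontal) and the shorter of the peak-free stretches on their sides (kb, vertical). The chain of the hairy window, in red, has 37 peaks and 42081 bp, and the 38 other chains have at most 24824 bp.

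Against other windows of the same size, the hairy window was near the top by number of peaks and at the top by covered bases. The arm was tiled into windows of 80 kb of which the hairy window is one, and the other 303 windows held a median of 7 peaks, with quartiles of 3 and 12. The 37 members were 5.29 times that median. A single window, at 720001 to 800000, held more, with 38 peaks, or 0.33% of the others. That share depended on the counting, and was 6.27% with peaks less than 1 kb apart joined and 5.33% with windows of 160 kb. Numbers of 20 or more were reached in 23 of the 303, numbers of 30 or more in 3, and 34 were empty. The covered share of the hairy window, 45.5%, was 9.92 times the median of 4.59%, and no other window reached it. The highest among the others was 43.6%.

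**Figure D5:**
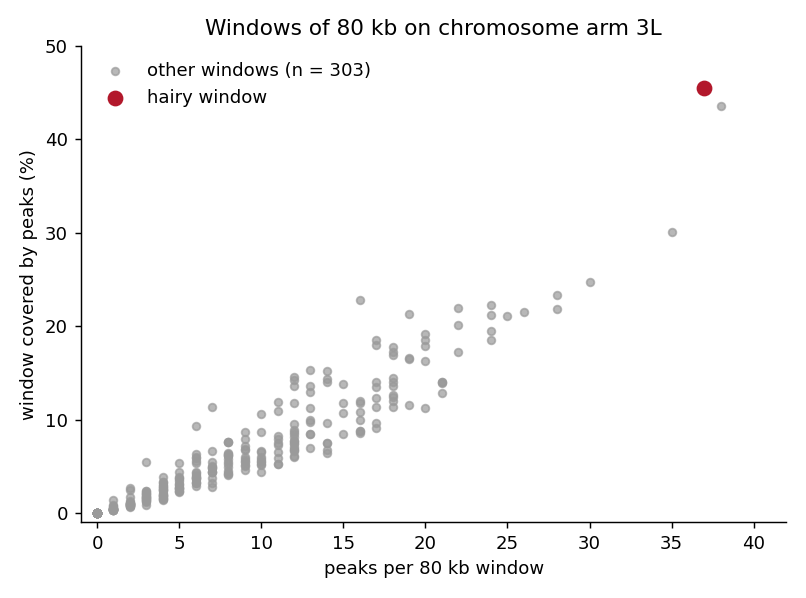
Number of Groucho peaks (horizontal) and share of bases they cover (%, vertical) in each 80 kb window of 3L, with the hairy window in red and 303 other windows in grey. The hairy window stands at 37 peaks and 45.5%, beside a window with 38 peaks and 43.6%.

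The hairy window also held more high-scoring peaks than any other window of the tiling. No other window of 3L held more than 5 peaks above 100, and 201 of the 303 held none, whereas the hairy window held 9. These were 5.36% of the 168 such peaks of the arm, in 0.328% of its length. The window at 720001 to 800000 had 2 peaks above 100, although its covered share was close. Its 4 peaks wider than 2 kb were also the most in any other window, against 5 in the hairy window.

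The windows at 17920001 to 18000000 and 2800001 to 2880000 came next by both measures, with 35 and 30 peaks and 30.1% and 24.7% of bases covered. They held 2 and 3 peaks above 100. The list of 5 by number was completed by the window at 9360001 to 9440000 with 28 peaks, and that by covered bases by the window at 16160001 to 16240000, which also had 28 peaks and covered 23.4%. The median scores of these 5 other windows ran from 16.43 to 31.15, so that the hairy window's 19.85 lay among them. Its highest score of 312.93 lay above theirs, which ran from 124.26 to 241.41.

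Dense windows on the arm usually had peaks beside them. In the 24 windows with 20 or more peaks, the adjoining windows on both sides together held a median of 19 peaks. The hairy window had 8, the lowest sum of the 24, and was the only one of them with an empty window at its side. This contrast depends in part on where the windows were placed. The hairy window was set with the list known, and its borders already held all peaks of the run. Borders of the tiling can cut other runs, as the chain of 42 peaks at 17940378 to 18010037 crosses the border at 18000000. When windows slid by 10 kb, the most peaks in any window that overlapped the hairy one was 37, and the most on the arm was 44, at 17940001 to 18020000.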

How the data were processed

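Library titles gave the groups, 2 Groucho ChIP and 2 input DNA libraries of white prepupae. The deposited data are 1 GFF3 peak list with no column of a single library. Per the file headers, coordinates are on FlyBase release 5 and the caller is MACS. BDGP5, BWA, MACS2 and CASAVA 1.7.0.2 and 1.7.0.3 appear in the submitters' processing notes. How peaks were thresholded, reads filtered or libraries pooled was not given in the sources used here. Scores were deposited as the authors' caller gave them, on a scale that is not stated, and were used only within this list.

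Positions are 1-based. A peak belonged to the window by its centre, and the last base of the last peak served as arm length. Covered bases were counted within window borders. Windows of 80 kb were tiled at multiples of 80 kb, with ties in number ordered by position. Gaps run from the end of a peak to the start of the next. The window, the call rules (score above 100, width over 2 kb, at least 4 others within 10 kb), the alternatives and the chains were chosen with earlier results of these data known. The sites named by rule were the 10 members of highest score, the 3 widest, those at the borders and at the 2 longest gaps, and the 5 leading windows by number and by covered bases. The other members and the chains were described after their values were seen. No sequence of release 5 was used here. The counting steps were tested on simulated lists. Software was Python 3.11.15 (pandas 2.3.3, numpy 2.4.6, scipy 1.17.1 and matplotlib 3.10.9).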

Additional observations from a re-analysis of the deposited data

How the results depend on the processing

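Of 56 alternative values, 46 stayed close to those reported, 10 moved and 0 reversed. Close meant counts and covered bases within 1.5 times, and median score and window shares within 95% binomial intervals. Counts, medians and shares have no sign, so 0 reversed was bound to result. With the 50% of peaks of highest score, the window held 22 peaks with a median score of 60.01, 18 had at least 4 others within 10 kb, and 0% of other windows held as many peaks, against 0.33% for all peaks. With peaks less than 1 kb apart joined, it held 13 peaks with a median score of 78.06, 10 were wider than 2 kb, 3 had at least 4 others within 10 kb, and 6.27% of other windows held as many. Fewer peaks enter both settings by construction, and joining widens peaks over the whole arm. Shares among the other peaks of 3L were not computed under these settings, so the counts by width and closeness have no background here. With windows of 160 kb, 5.33% of others held as many peaks, and the reason for this change was not tested. The share of other windows with as many covered bases was at most 0.667% in all settings run. Moving the window by 20 kb, windows of 40 kb, sliding windows and windows with at least 1 peak stayed within these limits. So did counting by any base or whole peaks, which gave the reported values again. No peak crossed a border of the hairy window, so its own values could not change there. Those 2 ways of counting are therefore no check on them. No paired analysis was possible because the list holds no value per library, so no library could be left out either. Read depth is unknown.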
